A study of Rattus norvegicus with 4 samples.

Results

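Rat primary chondrocytes, the cells that build and maintain cartilage matrix, were given the inflammatory cytokine interleukin-1β (IL-1β) at 10 ng/ml for 12 h and compared with untreated chondrocytes of 0 h. The comparison uses 2 of the 4 arrays of the series, 1 for each group, and all 679 rat microRNA (miRNA) probes that each array carries. Both groups were cultured at 200000 cells per ml, and their total RNA was profiled on a Cy5-stained miRNA array with 5 spots per probe. The other arrays hold cells treated for 6 h and 24 h. They entered the normalization and are quoted beside some of the values at 12 h. Strain, age and the number of animals behind a sample are not given in the sources used here. There was no untreated array at 12 h, so IL-1β and 12 h in culture cannot be told apart.

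A miRNA is cut as a duplex from a hairpin precursor, one arm usually being the more abundant, and it represses messenger RNAs that pair with its seed, bases 2 to 8 from its 5′ end. miRNAs that share a seed are grouped as a family because they can pair with the same sites. IL-1β acts on chondrocytes through NF-κB and MAP kinase signalling, lowers the making of matrix proteins and induces enzymes that degrade them, and it is widely used as a culture model of inflamed cartilage.

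With 1 array a group no test was possible. Each ± is the standard error of a log2 change from the 5 spots on each array, which covers spot error only. Levels are log2 intensities after background correction and quantile normalization, and units are the scanner's as deposited. A miRNA rose or fell where its level differed by at least 2-fold (log2 change of 1) and by more than 2 standard errors. It entered the comparison where at least 3 of its 5 spots exceeded the 95th percentile of the empty spots on at least 1 of the arrays. That was so for 249 miRNAs, with 178 seen on both arrays, 62 at 12 h only and 9 in the control only. The array of 12 h could see dimmer spots, with a detection limit of 96.4 units beside 151.3 in the control, and 48 of the 62 miRNAs seen at 12 h only had a mean signal below the control's limit. Of all miRNAs compared, 24 changed (9.64%), 14 higher (5.62%) and 10 lower (4.02%). Most moved little: 155 stayed within 0.5 of their control level on the log2 scale, and the median change was 0.09. Levels on the arrays were correlated across miRNAs at r = 0.959, a description over 249 probes that share both arrays. The plot of levels shows the 24 against the rest.

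**Figure D1:**
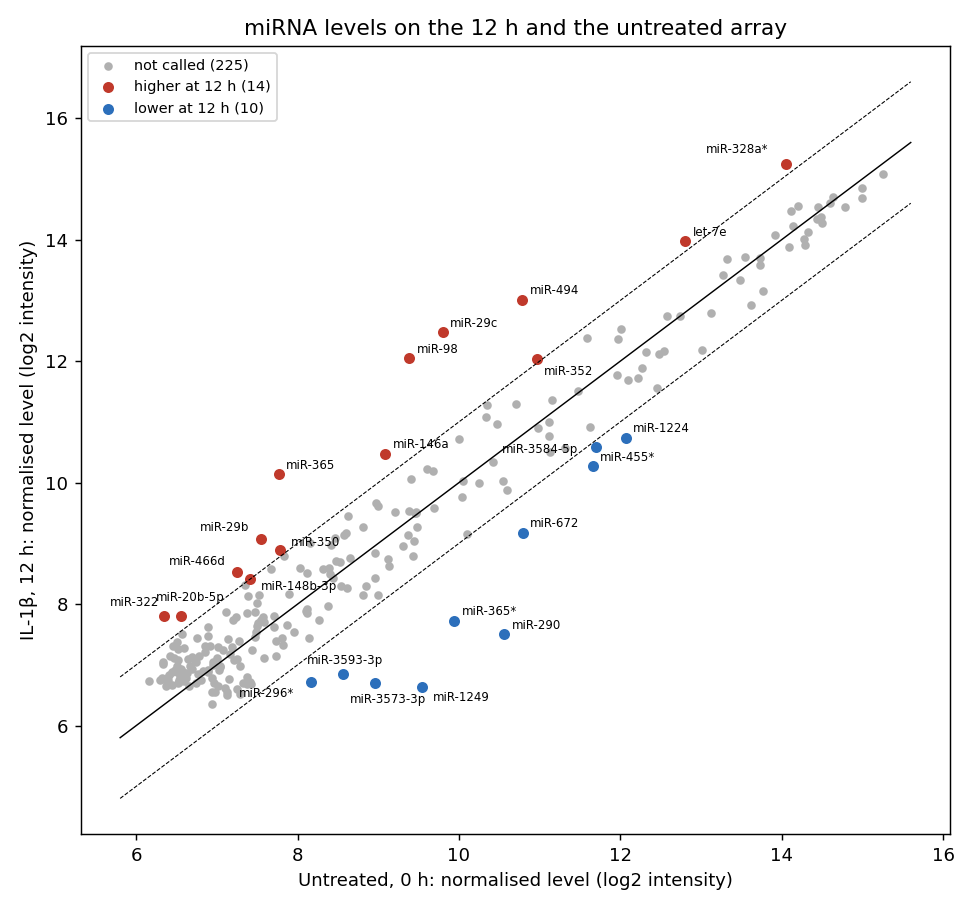
Normalised log2 level of the 249 miRNAs compared on the untreated array (x axis) and the 12 h array (y axis), each point the mean of 5 spots. The solid line marks equal levels and the dashed lines a 2-fold difference; 14 miRNAs called higher lie above the upper line and 10 called lower lie below the lower one.

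The sequences of the miRNAs that rose or fell furthest are shown first, as the array files give them, 5′ to 3′ with the seed in capitals. RefSeq mature sequences of build GRCr8 are identical for 22 of the 24 that changed, miR-328a* and miR-352 being the exceptions. The let-7, miR-29 and miR-146 families come first, with members that changed beside members that did not, because they differ by few bases.
let-7a: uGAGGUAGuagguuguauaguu
let-7d: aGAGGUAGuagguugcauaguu
let-7e: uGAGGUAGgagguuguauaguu
miR-98: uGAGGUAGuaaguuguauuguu
miR-352: aGAGUAGUagguugcauagua
miR-29a: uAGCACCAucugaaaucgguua
miR-29c: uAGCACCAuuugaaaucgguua
miR-29b: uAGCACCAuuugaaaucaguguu
miR-146a: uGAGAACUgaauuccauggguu
miR-146b: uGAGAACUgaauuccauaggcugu
Positions are counted from 1 at the 5′ end, and each change is written from the brighter relative to the dimmer one. From let-7a to let-7e the change is U9G, from miR-29a to miR-29c it is C10U, and from let-7a to miR-98 the changes are G11A and A19U. miR-352 has another seed, but its whole sequence lies 2 edits from let-7d.

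The second set holds miR-494, both arms of the hairpin whose arms moved in opposite directions, the miRNA whose probe gave the highest signal at 12 h, and 6 of the miRNAs that fell.
miR-494: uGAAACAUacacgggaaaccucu
miR-365: uAAUGCCCcuaaaaauccuuau
miR-365*: gAGGGACUuucaggggc
miR-328a*: gGGGGGCAggaggggcuca
miR-290: uCUCAAACuaugggggca
miR-1249: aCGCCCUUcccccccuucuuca
miR-3573-3p: uUCCUAACucugcccccucccau
miR-3593-3p: cUUCAACCuuaagggggccuca
miR-455*: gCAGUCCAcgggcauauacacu
miR-1224: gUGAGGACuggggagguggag
The 24 miRNAs that changed carry 22 seeds. Of the 29 seed families with at least 2 members compared, the let-7 seed and the miR-29 seed each held 2 or more that changed, 4 held 1, and none held members that changed in opposite directions.

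The miR-29 family targets transcripts of many collagens and other matrix proteins. Of its 3 members 2 rose, beside 5.62% of all miRNAs compared. miR-29c showed the largest measured rise in normalised level of all miRNAs compared, but miR-98 (2.66 ± 0.28) was within spot error of it. In signal above the empty spots, 12 h was 15.7 times the control for miR-29c and 17.0 times for miR-98. The spots of miR-29c read 498 to 804 units in the control and 7806 to 9601 units at 12 h, and its level rose 6.36-fold (log2 change 2.67 ± 0.19). miR-29b read 165 to 246 units in the control and 622 to 767 units at 12 h, a rise of 2.89-fold (1.53 ± 0.17). The spots of the arrays did not overlap for either. miR-29a, at a mean of 11041 units in the control and 20604 units at 12 h, was not called (0.16 ± 0.09). The median change of the family was 1.53, beside 0.09 over all miRNAs compared. Leaving out probes with a much brighter relative removes both miR-29b and miR-29c, and the median is then the 0.16 of miR-29a. RefSeq places miR-29c at chr13:109099412-109099433 and a copy of miR-29b at chr13:109098882-109098904 (GRCr8, plus strand), both within the bounds of the long non-coding RNA gene LOC102550527. A second copy of miR-29b lies at chr4:60618342-60618364 on the minus strand, beside miR-29a, and the probe cannot tell the copies apart.

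The let-7 family, known for restraining proliferation and for its abundance in differentiated cells, had 2 of 8 members higher and none lower, beside 5.62% and 4.02% of all miRNAs compared. miR-98 read 345 to 637 units in the control and 5050 to 8718 units at 12 h, a 6.32-fold rise (2.66 ± 0.28). let-7e read 3987 to 5781 units in the control and 17548 to 23059 units at 12 h, a 2.25-fold rise (1.17 ± 0.14). The other 6, let-7a, let-7b, let-7c, let-7d, let-7f and let-7i, had changes between 0.01 and 0.36, and the family's median was 0.22. miR-352, which resembles let-7 outside the seed, rose 2.11-fold (1.08 ± 0.16), from 992 to 1493 units in the control to 5859 to 8029 units at 12 h. After correction of all changes for GC content, let-7e (0.88) and miR-352 (0.70) no longer reached 2-fold. miR-98 lies at chrX:24460663-24460684 (plus strand) within the bounds of Huwe1, in a cluster with let-7f, whose change was 0.36 ± 0.09. let-7e lies at chr1:67350243-67350264 (plus strand) in a cluster with miR-99b (-0.40 ± 0.09) and miR-125a-5p, neither of them called.

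miR-98, let-7e and miR-352 stood above the control at 12 h and below it at 24 h. The log2 changes of miR-98 were 0.78, 2.66 and -1.19 at 6, 12 and 24 h, and those of let-7e were 0.67, 1.17 and -0.53. miR-352 had 0.84, 1.08 and -0.23. For miR-29c the values were 1.18, 2.67 and 1.85, above the control at each time. All of these changes share the 1 control array.

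Each of these rising miRNAs has a brighter relative on the array. Of the miRNAs compared, 22 lie within 4 edits of a probe with at least 4 times their signal on either array, and 7 of those rose and none fell (31.8% called, beside 9.64% of all compared). The 7 are miR-29c, miR-29b, miR-98, let-7e, miR-352, miR-20b-5p and miR-148b-3p. Among the other 227, 7 rose and 10 fell (7.49%). The median change was 0.51 with such a relative and 0.04 without. The rule uses the same signals as the changes, so a miRNA dim in the control can both qualify and rise for that reason. These shares and medians are therefore a description and no test. miR-29c and let-7e qualified through the control array only, let-7e with 4674 units above the empty spots there and 19763 units at 12 h. In signal above the empty spots, miR-98 went from 406 to 6893 units and let-7a from 19766 to 31030 units, and miR-29c went from 540 to 8497 units and miR-29a from 10918 to 20528 units.

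The array's mismatch controls, spots whose sequence departs from a matched control, also differed between the arrays. For the 11 mismatch probes above the empty spots on both arrays, the signal was taken as a percentage of the matched probe. Its median was 22.3% at 12 h and 1.60% in the control, and the percentage was higher at 12 h for 11 of 11. The medians fall on different probes. Ctr03-3M05 read 22.3% at 12 h and 10.7% in the control, and Ctr06-3M05 read 2.44% and 1.60%. Without subtraction of the empty spots, Ctr06-3M05 (4.63% at 12 h, 5.17% in the control) and a-PUC2MM2d (1.33%, 1.75%) were lower at 12 h and the others higher. The mismatch probe Ctr07-3M05 read 1.01% of its matched probe in the control, 2.07% at 6 h, 24.4% at 12 h and 1.29% at 24 h. Ctr10-3M05 read 2.87%, 4.36%, 17.3% and 2.63% in that order. Ctr07-3M05 and Ctr10-3M05 were therefore highest on the 12 h array. Of the 11, Ctr03-3M05 alone read higher on another array, 24.2% at 24 h. The 11 share 9 matched probes, and the percentage also depends on the matched signal, lower at 12 h for some and higher for others. Above the empty spots, Ctr07-3P went from 46032 to 37003 units and Ctr10-3P from 17551 to 24442 units. Among the pairs outside the 11, Ctr05-3M10 read lower at 12 h (1.59%, beside 2.76% in the control) and Ctr03-3M10 higher (3.49%, beside 1.02%). Over all 27 pairs the median was 0.439% at 12 h. The control's median of 0.377% leaves out Ctr02-3M05 and Ctr02-3M10, whose matched probe read below the empty spots there. Both medians include negative percentages, from mismatch probes below the empty spots. The part of this signal in the changes of the related miRNAs was not tested.

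**Figure D2:**
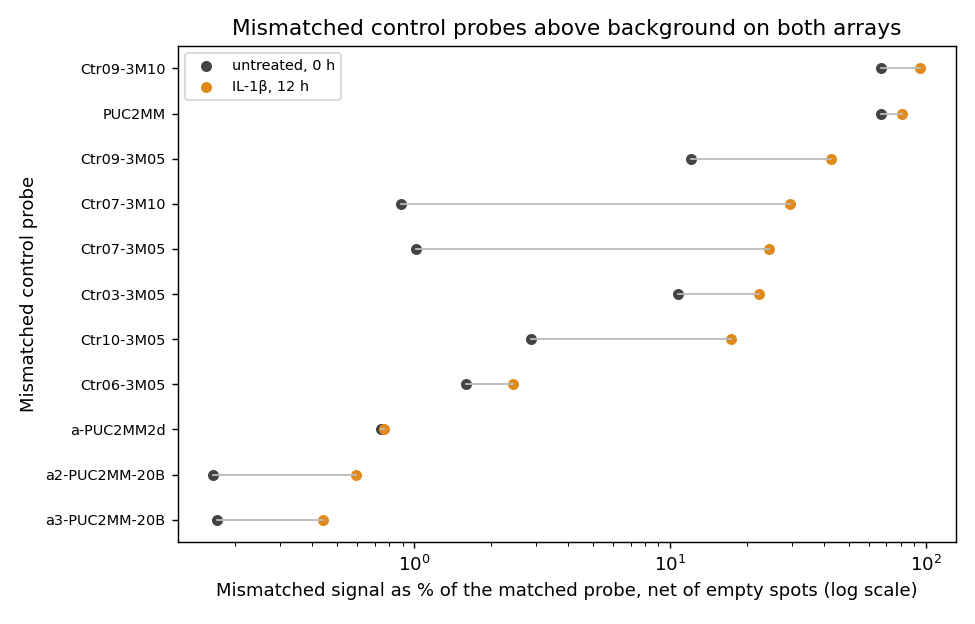
Signal of mismatch control probes above the empty spots, as a percentage of the matched probe on the same array, for the untreated and the 12 h array, on a log axis. Each of the 11 probes above the empty spots on both arrays was higher at 12 h, with medians of 1.60% and 22.3% that fall on different probes.

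Among 8 inflammation-responsive miRNAs compared, 1 rose and none fell, with a median change of 0.15. Of all miRNAs compared 9.64% were called, so 1 of 8 is close to the share over all. miR-146a, which is induced by NF-κB and targets adaptors of IL-1 receptor signalling, read 358 to 522 units in the control and 1993 to 2365 units at 12 h and rose 2.62-fold (1.39 ± 0.10). Its log2 changes at 6 and 24 h, from the same control, were 0.97 and 2.52. miR-146b, which shares its seed, had a change of 0.62 ± 0.15 and was not called. miR-21, an abundant miRNA in many stressed and growing cells, had -0.15 ± 0.08, miR-132 had -0.01 ± 0.12, and miR-221 and miR-222 had 0.16 ± 0.10 and 0.14 ± 0.07. miR-146a lies at chr10:28350053-28350074 (minus strand) within the bounds of the long non-coding RNA gene LOC134480673. miR-155 has no probe of that name on the array.

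Of 6 cartilage miRNAs compared, none rose and 1 fell, beside 5.62% higher and 4.02% lower of all compared. Their median change was -0.32. miR-140 and its opposite arm miR-140*, the best known cartilage-enriched miRNAs, were seen on both arrays. miR-140* had a mean of 8265 units in the control and 10325 units at 12 h, with a log2 change of -0.70 ± 0.13, and miR-140 had a change of 0.62 ± 0.08. miR-455*, whose gene lies within the bounds of the cartilage collagen gene Col27a1 (chr5:81704881-81704902, plus strand), fell 2.61-fold (-1.39 ± 0.08). Its spots read 1647 to 2160 units in the control and 1668 to 1969 units at 12 h, so its unnormalised signals overlapped. For the miRNAs seen on both arrays, the signal above the empty spots at 12 h was a median of 1.90 times that in the control, and the fall is relative to that. Without normalization the change of miR-455* was -0.12 and was not called. Here and below, fewer cells of a type and less RNA per cell cannot be told apart in bulk RNA.

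Among 16 regulators of cartilage matrix and proteases, 3 rose and none fell, with a median of 0.15, beside 5.62% higher and 4.02% lower of all compared. The 3 are miR-29b, miR-29c and miR-146a, which other lists hold too. miR-27a and miR-27b, reported to target the collagenase Mmp13, had changes of -0.14 and -0.20, and miR-320 had -0.91 ± 0.07. The 5 members of the miR-23/27/24 clusters lay between -0.38 and -0.14 and the 5 mesenchymal miRNAs between -0.71 and -0.19, with none called in either list, and without normalization the medians of both turned positive. The sign of the median also turned under some alternative for the let-7, cartilage, matrix and protease, miR-15/16, miR-181 and Dlk1-Dio3 lists, and held for the miR-29 (lowest 0.16), miR-30, inflammation-responsive, miR-17-92 and Hox-linked ones. The plot of lists shows their spread.

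**Figure D3:**
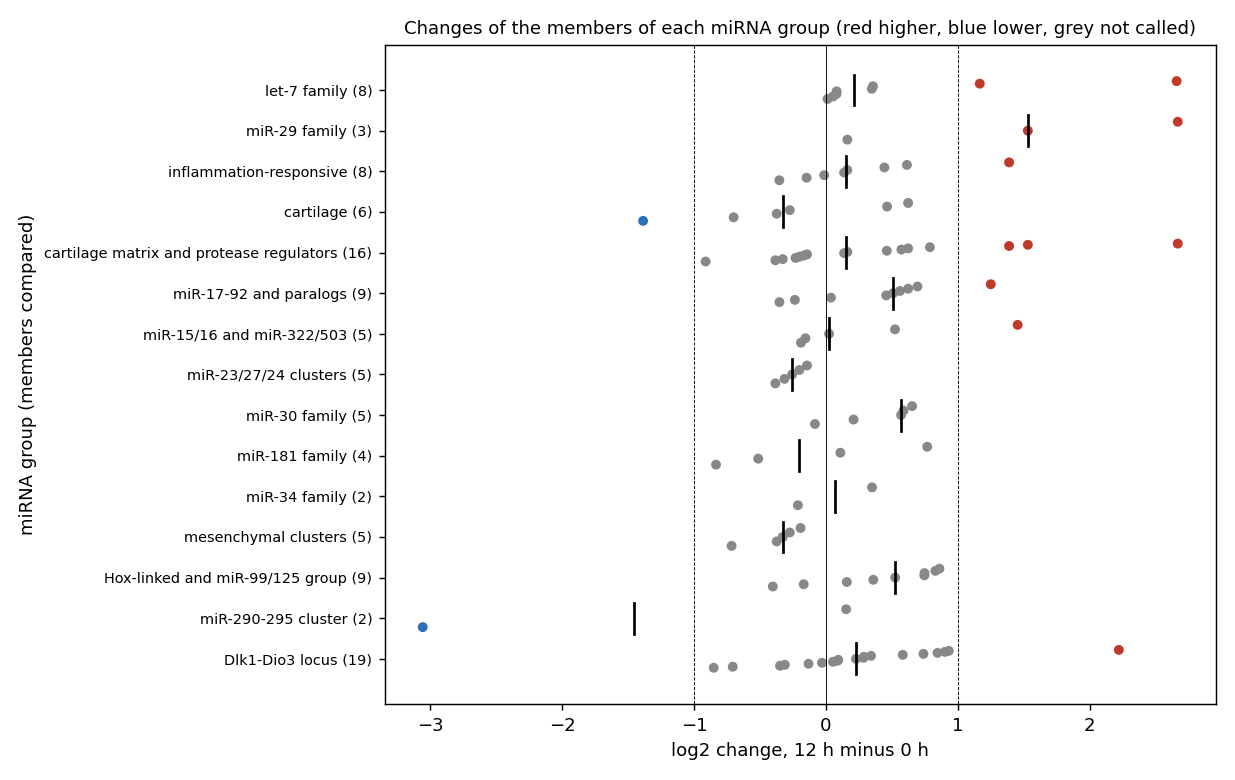
Log2 change from 0 h to 12 h (x axis) of each compared member of the miRNA lists (rows), each point 1 miRNA and each bar a list's median. The miR-29 family has the highest list median (1.53; 0.16 without probes that have a much brighter relative), and dashed lines mark a 2-fold difference.

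The hairpin of miR-365 showed opposite changes of its arms. miR-365, the 3′ arm, read 177 to 246 units in the control and 1293 to 1821 units at 12 h and rose 5.17-fold (2.37 ± 0.16). miR-365*, the 5′ arm, read 592 to 781 units in the control and 194 to 287 units at 12 h and fell 4.64-fold (-2.21 ± 0.12). The arms lie at chr10:65184271-65184292 and chr10:65184231-65184247 on the plus strand. Their changes at 6 h were 1.75 and -2.18, and at 24 h 0.69 and -1.59, against the same control. Among the 45 hairpins with both arms compared and both matched exactly to RefSeq, this was the only one with both arms called. The median absolute difference between arms was 0.49, and the change of miR-365* minus that of miR-365 was -4.58. In 3 further hairpins of the 45, 1 arm was called. The hairpins of miR-455* and miR-328a*, both called, were not among the 45. miR-455, seen at 12 h only, had a change of 0.46 ± 0.15, and miR-328a was compared and not called. miR-322, seen at 12 h only, was at least 1.88-fold higher, and miR-322*, seen on both arrays, had a change of 0.05. miR-672 and miR-296*, both lower, also belong to hairpins among the 45. Their opposite arms, not detected in the control, had changes of 0.14 (miR-672*) and -0.16 (miR-296). Those changes start from an undetected level, which limits what the difference between the arms shows.

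**Figure D4:**
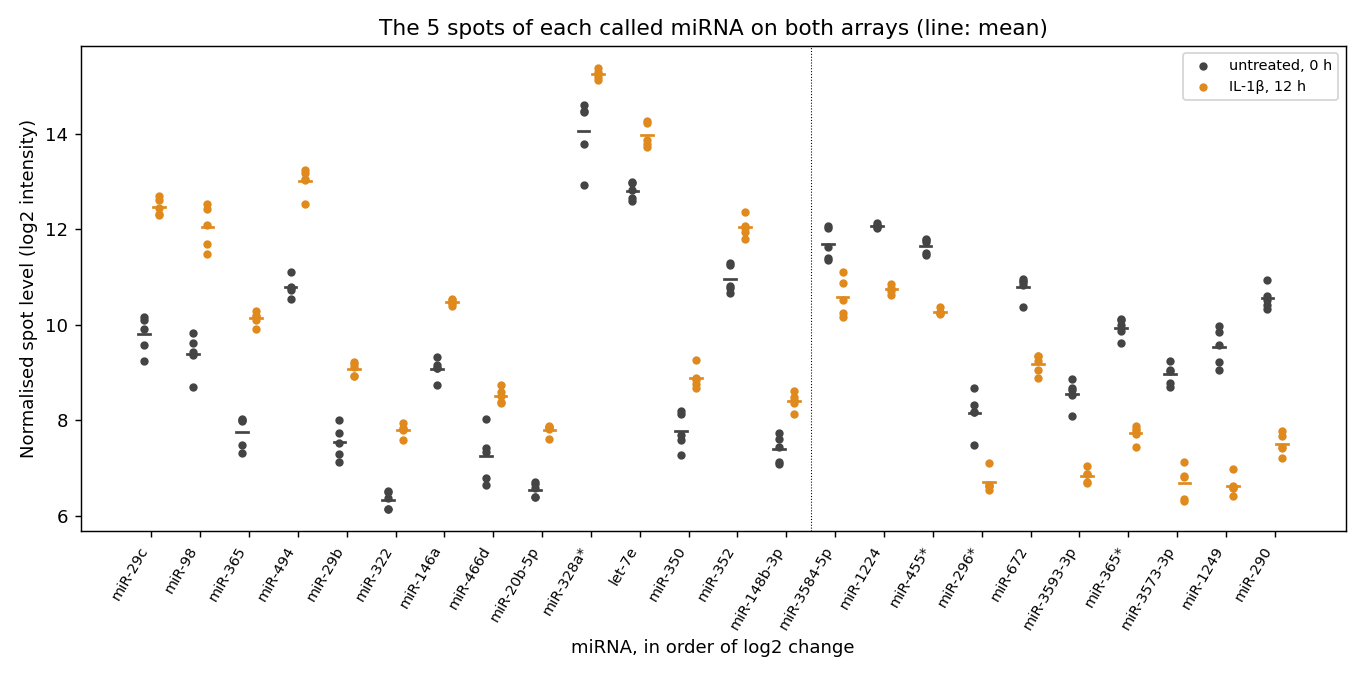
Normalised log2 levels (y axis) of the 5 spots of each of the 24 called miRNAs (x axis, in order of change) on the untreated and the 12 h array, with lines at the means. The spots of the 2 arrays did not overlap for any of the 24 called miRNAs. The call rule selects on size of change and spot error, so it favours such separation. Overlap among the miRNAs not called is not given, so the separation is no added evidence for the calls.

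miR-494 rose 4.66-fold (2.22 ± 0.15), from 925 to 1412 units in the control to 8728 to 12596 units at 12 h. It belongs to the large imprinted Dlk1-Dio3 cluster (chr6:134550163-134550185, plus strand). Of the 19 members of that locus compared, 1 rose and none fell, beside 5.62% higher and 4.02% lower of all compared. Their median change was 0.23. All 19 were detected at 12 h and 11 in the control, so the others entered only through the array that could see dimmer spots. miR-329, in the same cluster, had 0.93 ± 0.11 and was not called, and miR-495 was seen at 12 h only. The changes of miR-494 at 6 and 24 h were 0.59 and 2.38.

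miR-328a*, whose probe gave the highest signal on the 12 h array, rose 2.30-fold (1.20 ± 0.32). Its spots ranged from 5066 to 18946 units in the control, and from 41760 to 49544 units at 12 h. With the median of spots or with the authors' values it no longer reached 2-fold, at a lowest value of 0.76. Its change at 6 h was 0.76 and at 24 h -3.54.

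The remaining rises were smaller. miR-466d rose 2.42-fold (1.27 ± 0.25), miR-350 rose 2.15-fold (1.11 ± 0.20), and miR-148b-3p, which lies in the bounds of Copz1, rose 2.00-fold with an error of 0.15 on the log2 scale. All 3 fell short of 2-fold with scaling to the median of miRNAs seen on both arrays (0.84, 0.82 and 0.62 in that order) and after GC correction (0.68, 0.85 and 0.72). miR-322 and miR-20b-5p, of the miR-15/16 and miR-17-92 related groups that act on the cell cycle, were seen at 12 h only. miR-322 was at least 1.88-fold higher (1.45 ± 0.10 as measured) and miR-20b-5p at least 1.89-fold (1.25 ± 0.08). Neither was called when the control's level was raised to the lowest that array detected. Of the 9 members of miR-17-92 and its paralogs compared, 1 rose, beside 5.62% of all compared, with a median of 0.51. Of these members 7 were detected in the control and 9 at 12 h. The miR-30 family (median 0.57, 5 members), the Hox-linked list (0.53, 9 members) and the miR-181 family (-0.20, 4 members) had none called. These medians stood beside 0.09 over all miRNAs compared.

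miR-290 showed the largest fall in normalised level among the miRNAs seen on both arrays. miR-1249, seen in the control only, has a bound and cannot be ranked against it. In signal above the empty spots, 12 h was 0.0466 times the control for miR-1249, 0.0948 for miR-3573-3p and 0.159 for miR-290. miR-290 belongs to a rodent cluster expressed mainly in embryonic stem cells. Its spots read 866 to 1218 units in the control and 155 to 269 units at 12 h, a fall of 8.31-fold (-3.06 ± 0.14). The cluster's other probes stayed at background on both arrays, except miR-295, seen at 12 h only, with a change of 0.15 ± 0.09. miR-290 lies at chr1:74880106-74880123 (minus strand). Its changes at 6 and 24 h were -2.21 and -0.23.

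miR-1249, seen in the control only, read 446 to 677 units there and 78.4 to 126 units at 12 h and was at least 7.47-fold lower (-2.90 ± 0.20 measured). miR-3573-3p fell 4.83-fold (-2.27 ± 0.18), from 346 to 499 units to 71.8 to 146 units. miR-3593-3p fell 3.29-fold (-1.72 ± 0.14), from 255 to 389 units to 99.6 to 136 units. In these 3 the unnormalised spots were also lower at 12 h without overlap. miR-672 fell 3.07-fold (-1.62 ± 0.14) and miR-296*, seen in the control only, was at least 2.73-fold lower. miR-672 was not called without normalization (-0.60), nor miR-296* after GC correction (-0.86). miR-1224 (-1.33 ± 0.04) and miR-3584-5p (-1.12 ± 0.24) were like miR-455* in that their unnormalised spots overlapped between the arrays. The mean signal above the empty spots at 12 h was 0.968 and 1.13 times the control's, and without normalization their changes were -0.06 and 0.14.

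Changes and GC content of the sequences were correlated at r = -0.47 over the 249 compared, which share both arrays. In the third of miRNAs with the lowest GC content (25% to 45.5%), 12 rose and none fell, with a median change of 0.46. In the third with the highest (54.5% to 78.9%), 1 rose and 8 fell, with a median of -0.31. The 14 miRNAs that rose had a median GC content of 40.9% and the 10 that fell 60.1%. With changes corrected for GC content, 11 were higher and 9 lower, but these were not all the same miRNAs. Of the 24, 8 lost their call: let-7e, miR-352, miR-350, miR-466d, miR-148b-3p, miR-296*, miR-1224 and miR-3584-5p. The part of GC content in the changes was not tested.

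**Figure D5:**
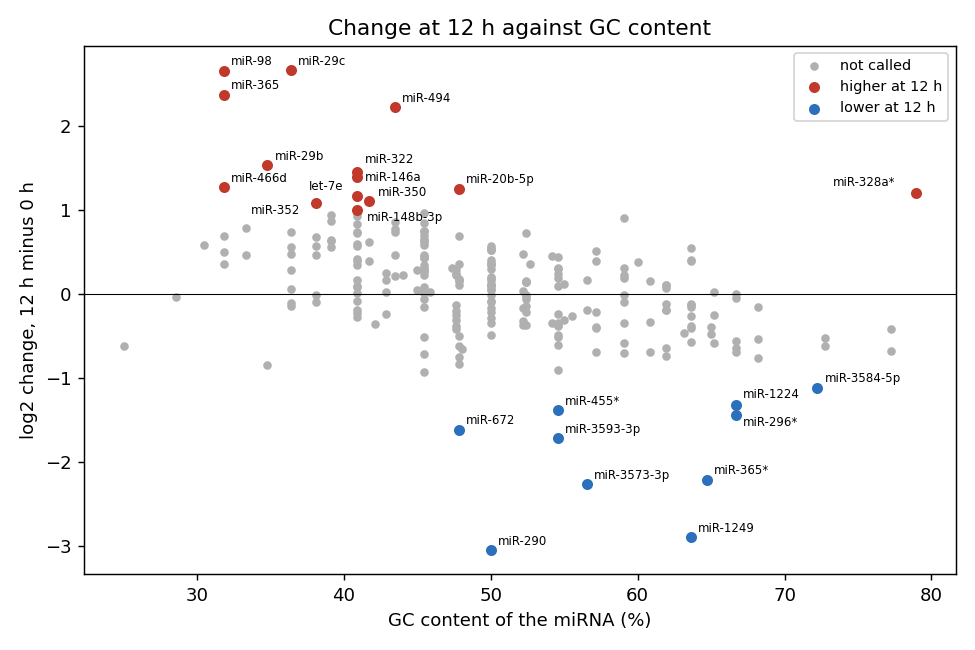
Log2 change from 0 h to 12 h (y axis) against GC content of the mature sequence in percent (x axis), each point 1 of the 249 miRNAs compared. Higher calls gather at low GC content (median 40.9%) and lower calls at high GC content (median 60.1%).

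At the 2-fold threshold, the miRNAs just inside were miR-148b-3p (2.00-fold) and miR-352 (1.08) on the higher side and miR-3584-5p (-1.12) on the lower, and those just outside were miR-129-2* (0.97 ± 0.15), miR-22* (0.96 ± 0.14) and miR-206 (-0.93 ± 0.09). Of the 10 probes with the highest signal on each array 7 were shared, among them miR-125b-5p (-0.17 ± 0.05), miR-21 and let-7a (0.06 ± 0.10), none of them called. Of the markers of other cells, miR-206 of muscle and miR-128 of neural cells were seen on both arrays, and miR-150 of blood and miR-126 of endothelium at 12 h only. None of the 7 epithelial markers nor the liver marker was seen on either array. None of these markers was called.

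The counts depended on how the arrays were scaled. Without normalization 52 were higher and 6 lower, and with scaling to the median of miRNAs seen on both arrays 16 were higher and 28 lower, beside 14 and 10. Across the 18 alternatives, miR-29b, miR-29c, miR-146a, miR-98, miR-494 and miR-365 among the higher, and miR-365*, miR-290, miR-3593-3p, miR-1249 and miR-3573-3p among the lower, were called in every alternative that tested them, and the other 13 lost their call in at least 1. The alternative without related probes left out miR-29b, miR-29c and miR-98, so they could not lose their call there. Those 3 and miR-1249 were tested in 17 of the 18.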

How the data were processed

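Total RNA from each sample was size-fractionated, tailed, tagged and stained with Cy5, per the labels' protocols. The deposited array files give a mean intensity for each of 3968 spots, in linear scanner units with no background subtracted, as the 261 empty spots show. The authors' own table gives 1 intensity per miRNA and array on a linear scale, with medians of 24.3 in the control and 23.4 at 12 h and lowest values of 0 and 0.09; its background and scaling method is not given in the sources used here, nor are the scanner and its software. It correlated with the spots at r = 0.997 and 0.999 and served as an alternative.

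Spots were corrected with normexp (offset 50) in limma 3.58.1 under R 4.3.3, quantile normalized over the miRNA spots of the 4 arrays, transformed to log2 and averaged per probe. Later steps ran in Python 3.11.15 (pandas 2.3.3, numpy 2.4.6, matplotlib 3.10.9). Normalization and the call rule were run on simulated data, made from the control array with its own spot noise and known changes. Those data hold no difference in background or signal scale between arrays and used no detection filter. They therefore cannot show how the calls stand up to such differences. Where an array did not detect a miRNA, the fold is a bound against the lowest detected level of that array, 6.89 in the control and 6.60 at 12 h (log2), or its own level if higher. Detected miRNAs numbered 187 and 240, and the median spot coefficient of variation was 11.3% and 9.84%. With 1 array a group, the number of arrays limits the precision.

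Sequences and loci were matched to RefSeq (GRCr8), exactly for 621 of 679 probes; no genome was used. The miRNAs named are those called, the 5 nearest the threshold on each side, the 10 of highest signal on each array, opposite arms and seed relatives of those called, and members of 15 lists and 6 marker lists. Members and lists were chosen with earlier results of these data known. Alternatives changed the background correction, normalization, filter, spot summary, call rule, GC correction and related probes.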

Additional observations from a re-analysis of the deposited data

How the results depend on the processing

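No paired analysis was possible because each group is 1 array. For the same reason no array could be left out, and the standard errors cover spots only. The median change of 0.09 became 0.40 without normalization, -0.29 with scaling to the median of miRNAs seen on both arrays, -0.047 over miRNAs detected on both arrays and -0.017 with each undetected level raised to the array's lowest detected one. The 14 higher became 24 with an offset of 16, 52 without normalization, 26 without normalization but centred, 43 with a 1.5-fold rule and 7 without related probes. The 10 lower became 6 without normalization, 28 with median scaling, 16 without normalization but centred and 30 with a 1.5-fold rule. The other alternatives gave 11 to 21 higher and 8 to 12 lower. Only miR-3584-5p reversed, to 0.14 without normalization. The mismatch percentage of 22.3% became 0.439% over all pairs. Without related probes fewer miRNAs were compared, and the 1.5-fold rule admits smaller changes by construction; the cause of the other shifts was not tested. The sign of the list median held under all alternatives for the miR-29 (down to 0.16 without related probes), miR-30, inflammation-responsive, miR-17-92 and Hox-linked lists, and not for the other 10. The detection limit, 151.3 units in the control and 96.4 at 12 h, bounds what could be seen of dim miRNAs.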

Other observations

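Runs of at least 4 G or at least 4 C were noticed in the sequences of the miRNAs that fell, so the counts are a description with no test. Such a run was present in 7 of the 10 lower miRNAs (70.0%), in 2 of the 14 higher (14.3%) and in 24 of the 225 not called (10.7%). miR-1249, miR-290 and miR-3573-3p, shown in the report, are examples among the lower ones, and miR-328a* is one among the higher. The median change of the compared miRNAs was -0.34 with a run and 0.14 without. Within the third with the highest GC content it was -0.44 for the 22 with a run and -0.22 for the 61 without.

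miRNAs with numbers from miR-3540 to miR-3599 and no letter after the number had 71 probes, of which 11 were compared. Names with a letter, such as miR-3556a, were counted with the other numbers. Of the 11, 3 fell (27.3%) and none rose, beside 8.82% called among the other numbers and 4.02% lower among all compared.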
